A study of Mus musculus with 15 samples.

Results

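The expression of 6 chemokine genes of cultured mesenchyme was followed through the first 48 h of culture of mouse dental mesenchymal cells (mDMCs): Ccl2, Ccl7, Cxcl1, Cxcl5, Cxcl12 and Cxcl14. They were chosen by name with earlier results of these data known, and all 6 have a row among the 12089 transcripts of the table. mDMCs are single cells that the study obtained by enzymatic digestion of molar mesenchyme from ICR mouse embryos at E14.5. RNA-seq libraries were made from freshly isolated cells (0 h, 3 libraries), from cells grown in serum-supplemented medium for 12 h (2 libraries), 24 h, 36 h and 48 h (3 libraries each), and from undissociated dental mesenchymal tissue (1 library). All groups share the strain and the embryonic age, no mutation or drug is named for any of them, and the comparison within the series is of time in culture. The study's methods speak in general of repeated independent experiments and of sequencing in replicates, but do not say whether the libraries of a time point came from separate isolations, so the p-values measure the spread between these libraries, which may be technical.

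Chemokines are small secreted proteins that bind G protein-coupled receptors and direct the movement of cells along a gradient. They are sorted by the spacing of their first cysteines: CC chemokines have adjacent cysteines and mostly attract monocytes and lymphocytes, CXC chemokines have a single residue between them, and those CXC members with a glutamate-leucine-arginine motif before the cysteines attract neutrophils through CXCR2. Some chemokines are kept at a steady level in tissues, while others are induced in stromal cells by injury, cytokines and serum, often through the transcription factor NF-κB.

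The class of each member can be read from its own coding sequence, which is why these stretches are shown. Each line gives part of the coding sequence of the transcript in the table (GENCODE, GRCm38), 5′ to 3′. Capitals mark the codons of the first 2 cysteines of the mature chain and, in Cxcl1 and Cxcl5, also the 3 codons for glutamate, leucine and arginine directly before them.
Ccl2: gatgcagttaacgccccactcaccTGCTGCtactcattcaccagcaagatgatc
Ccl7: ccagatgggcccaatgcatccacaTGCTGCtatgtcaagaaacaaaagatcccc
Cxcl1: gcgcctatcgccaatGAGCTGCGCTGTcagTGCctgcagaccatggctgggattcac
Cxcl5: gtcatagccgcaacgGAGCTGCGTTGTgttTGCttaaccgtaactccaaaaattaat
Cxcl12: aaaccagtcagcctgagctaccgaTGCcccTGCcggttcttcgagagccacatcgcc
Cxcl14: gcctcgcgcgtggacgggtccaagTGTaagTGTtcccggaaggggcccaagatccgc
In Ccl2 and Ccl7 no codon lies between the cysteines. The other 4 members have 1 codon between them, and Cxcl1 and Cxcl5 alone among the 6 have the glutamate-leucine-arginine codons. The members therefore form 3 pairs: the CC chemokines Ccl2 and Ccl7, the neutrophil-attracting Cxcl1 and Cxcl5, and the CXC chemokines without that motif, Cxcl12 and Cxcl14.

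The values are normalized scores in whole numbers. The libraries share a median score of 721 and a largest score of 127101, and their totals lie between 21357605 and 21365980. The scores were thus brought to a common distribution by a step that is not given, and the read depth is unknown. A score is not a simple rank within its library, since Col3a1 and Col1a2 both had 127101 in every library at 0 h. A score of 21.4 corresponds to 1 ppm of a library, and scores below about that size move in coarse whole steps. Changes are given on the log2(score + 1) scale, which understates those of low genes. A gene was called when limma gave an adjusted p below 0.05 and a change above 2-fold. All 6 members were tested. Ccl7 reached 1 ppm in 6 of 14 mDMC libraries, all of them at 36 h or 48 h, so it entered the test only through the time points at which it was high and had to differ from the others.

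In the comparisons of cultured with freshly isolated cells, which all share the same 0 h libraries, Ccl2 was called higher at 12 h (1 of 6 members, with 12.1% of all genes called higher), and Ccl2 and Ccl7 at 24 h (13.8%), 36 h (15.5%) and 48 h (16.1%). Cxcl1 and Cxcl5 were called lower at 12 h (2 of 6 members, with 12.0% of all genes called lower), 24 h (14.1%), 36 h (15.5%) and 48 h (15.8%). The median log2 change of the 6 members at 48 h was 0.14, beside 0.03 for all genes. Without the fold threshold, 12 h had 2 members higher and 3 lower, against 29.9% and 28.3% of all genes, and 24 h had 3 higher and 2 lower (35.0% and 31.8%). The counts were 3 higher and 3 lower at 36 h (36.0% and 34.0% of all genes) and again at 48 h (37.1% and 34.0%). Because mRNA was taken from whole cultures, a changed score may come from a changed share of some cells or from changed RNA per cell. For higher as for lower scores, these cannot be told apart.

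**Figure D1:**
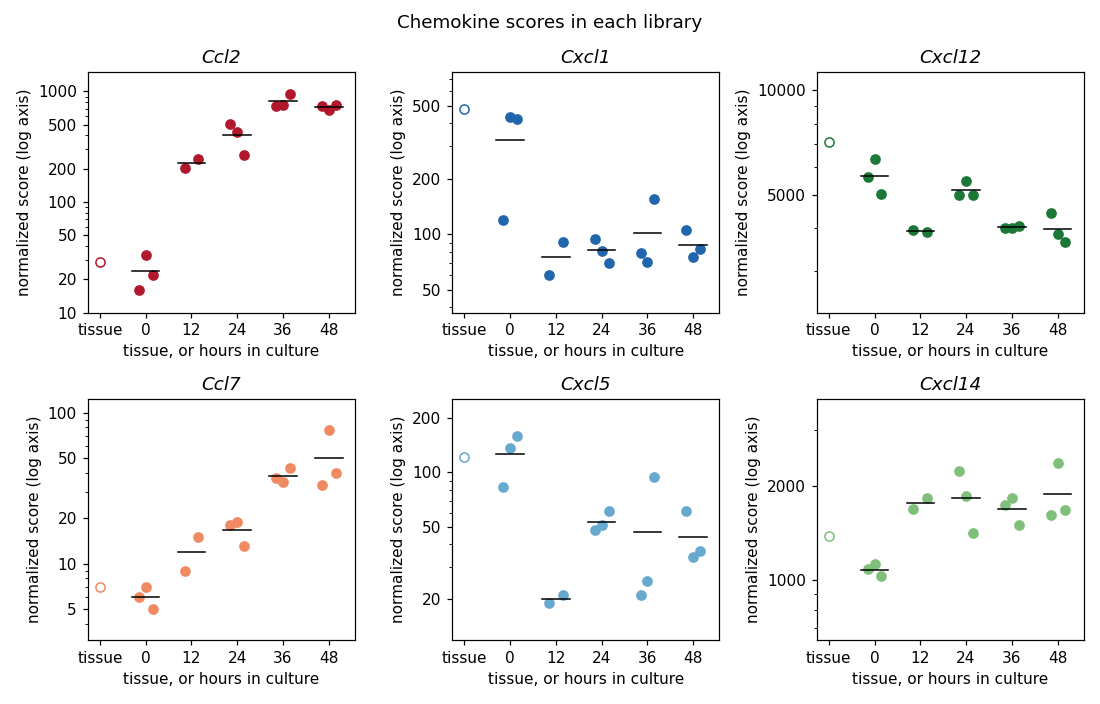
Normalized score of each chemokine (log axis) in the tissue (open circle) and in mDMCs at 0, 12, 24, 36 and 48 h of culture (filled circles, 1 per library, with the group mean as a line). Ccl2 stood between 16 and 33 at 0 h and between 203 and 940 in culture, whereas Cxcl1 had scores of 431 and 420 in 2 of the 3 libraries at 0 h and at most 155 in culture.

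Ccl2, the main attractant of monocytes through CCR2, had the largest change of the 6 members. Its transcript (ENSMUST00000000193, protein coding, 3 exons, 813 bases) lies on the plus strand of chromosome 11 from 82035571 to 82037453 (GRCm38). The score of Ccl2 was 16, 33 and 22 at 0 h and 29 in the tissue. It was 203 and 247 at 12 h, 509, 428 and 269 at 24 h, 740, 762 and 940 at 36 h, before 746, 680 and 761 at 48 h. Every cultured library was above every library at 0 h, and the ranges at 0, 12 and 24 h and that at 48 h were separate from each other, while those at 36 h and 48 h overlapped. Within the libraries Ccl2 moved from the lowest 2.13 to 3.77% of transcripts at 0 h to between the 50.7th and 57.5th percentile at 36 h.

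The limma fit put Ccl2 9.49-fold above 0 h at 12 h (log2 change 3.25, SE 0.28, adjusted p = 9.83e-07). The difference was 16.4-fold at 24 h (log2 change 4.04, adjusted p = 2.99e-08) and 34.2-fold at 36 h (5.10, adjusted p = 2.96e-09). At 48 h it was 30.8-fold, with a log2 change of 4.94, SE 0.25 and adjusted p = 3.5e-09.

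Within culture, Ccl2 rose further from 24 h to 36 h, by 1.06 on the log2 scale (SE 0.25, adjusted p = 0.0139). That call depended on single libraries: without 24 h replicate 3, which had the lowest Ccl2 of its group, the change was 0.79 (adjusted p = 0.0584), and without 36 h replicate 3, which had the highest, it was 0.95, under 2-fold. The step from 12 h to 24 h was 0.79 (adjusted p = 0.106) with all libraries and 1.06 (adjusted p = 0.0319) without 24 h replicate 3. From 12 h to 48 h Ccl2 rose by 1.70 (adjusted p = 0.000527), and between 36 h and 48 h the change was -0.15, with a 95% interval from -0.70 to 0.40.

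Ccl7, a monocyte attractant that shares receptors with Ccl2, lies 8258 bases downstream of it on the same strand (chromosome 11, 82045712 to 82047525, ENSMUST00000021011, 3 exons, 801 bases). Its score was 6, 7 and 5 at 0 h and 7 in the tissue. The cultured libraries gave 9 and 15 at 12 h, 18, 19 and 13 at 24 h, 37, 35 and 43 at 36 h, before 33, 77 and 40 at 48 h. Every cultured library was again above all libraries at 0 h, but Ccl7 stayed among the lowest 8.04% of transcripts in all of them. The ranges at 12 h and 24 h overlapped, and so did those at 36 h and 48 h, where replicate 2 was the highest library.

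Ccl7 had a log2 change of 0.86 at 12 h (adjusted p = 0.0809), which did not pass the test. It was higher by 1.33 at 24 h (SE 0.36, adjusted p = 0.00525), by 2.50 at 36 h (adjusted p = 3.9e-05) and by 2.78 at 48 h (adjusted p = 1.43e-05). These sizes depend on the pseudocount because the scores at 0 h are so small: with 10 in place of 1 the log2 changes were 0.73, 1.59 and 1.84, and the call at 24 h was lost. Ccl7 also rose from 24 h to 36 h (1.17, adjusted p = 0.0378) and from 12 h to 48 h (1.92, adjusted p = 0.00234). The step from 24 h to 36 h was no longer called when any library of these 2 time points was left out, with adjusted p between 0.0543 without 24 h replicate 1 and 0.131 without 24 h replicate 3.

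The ratio of Ccl2 to Ccl7 itself moved. Its log2 value was 1.77 ± 0.43 (mean ± SD, n = 3) in freshly isolated cells and 1.91 in the tissue. After 12 h of culture it was 4.15 ± 0.28 (n = 2), and the later groups (n = 3 each) had 4.48 ± 0.24 at 24 h, 4.37 ± 0.07 at 36 h and 3.93 ± 0.71 at 48 h. The neighbouring genes thus moved the same way with a larger change in Ccl2, although the size of the ratio at 0 h rests on Ccl7 scores of 5 to 7.

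Cxcl1 and Cxcl5, which both attract neutrophils through CXCR2, were lower in culture, the opposite direction to the CC pair. They lie on the plus strand of chromosome 5, Cxcl5 from 90759378 to 90761624 (ENSMUST00000031318, 4 exons, 1575 bases) and Cxcl1 129616 bases further on, from 90891241 to 90893115 (ENSMUST00000031327, 4 exons, 953 bases). Cxcl1 is a classical early NF-κB target, and the window of its promoter that was searched holds the motif for that factor, so it is printed here. The sequence is chr5:90890995-90891234 on the plus strand (RefSeq, GRCm38.p6), 240 bases that end 11 bases before the start annotated by RefSeq, which differs by a few bases from the transcript start above, with the κB motif in capitals.
Cxcl1 promoter: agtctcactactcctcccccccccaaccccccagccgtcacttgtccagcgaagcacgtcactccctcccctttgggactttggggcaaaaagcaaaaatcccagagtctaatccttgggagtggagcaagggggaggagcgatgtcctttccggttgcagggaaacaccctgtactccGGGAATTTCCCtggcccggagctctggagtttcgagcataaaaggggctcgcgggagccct
The κB motif matched on both strands at overlapping positions, the first base lying 71 and 70 bases before the start. It was found in 7.0% of 32851 RefSeq promoter windows of this length from 27025 genes. The windows of Cxcl12 and Cxcl14 held no κB match. Cxcl14 held the STAT motif TTCNNNGAA, a pattern that reads the same on both strands, 191 bases before the start (6.8% of windows). The AP-1 motif TGANTCA (6.6% of windows) and the E-box CACGTG (5.7%) were in none of the 3. Promoters of Ccl2, Ccl7 and Cxcl5 were not analysed here.

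The score of Cxcl1 was 120, 431 and 420 at 0 h, and 476 in the tissue. It was 60 and 91 at 12 h, 94, 81 and 70 at 24 h, 79, 71 and 155 at 36 h, before 105, 75 and 83 at 48 h. The low library at 0 h, replicate 1, was below the high library at 36 h, replicate 3, so the groups overlapped through these libraries. In the other 12 mDMC libraries the lower of the 2 scores at 0 h was 420 and the cultured scores did not exceed 105.

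Cxcl1 was lower than at 0 h by 1.90 on the log2 scale at 12 h (SE 0.49, adjusted p = 0.00474), that is 3.74-fold lower. The log2 change was -1.77 at 24 h (adjusted p = 0.00292), -1.54 at 36 h (adjusted p = 0.00668) and -1.67 at 48 h (SE 0.44, adjusted p = 0.00385). Between cultured time points no change of Cxcl1 passed the test. The call at 12 h was lost without 12 h replicate 1 (-1.61, adjusted p = 0.0504).

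Cxcl5 had scores of 83, 137 and 159 at 0 h and 122 in the tissue. The scores were 19 and 21 at 12 h, 48, 51 and 61 at 24 h, 21, 25 and 94 at 36 h, before 61, 34 and 37 at 48 h. The lowest values were those at 12 h, below every library at 24 h and 48 h, and the range at 36 h spanned nearly the whole of the cultured range because of replicate 3.

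Cxcl5 fell by 2.55 on the log2 scale at 12 h (SE 0.52, adjusted p = 0.00105), 5.86-fold. The change from 0 h was -1.18 at 24 h (SE 0.47, adjusted p = 0.0387), -1.70 at 36 h (adjusted p = 0.00557) and -1.50 at 48 h (adjusted p = 0.0114). The call at 24 h was lost without 0 h replicate 2 (adjusted p = 0.0967), 0 h replicate 3 (0.119), or any 1 of the 24 h libraries (0.0906, 0.0851 and 0.0544). From 12 h to 24 h the score was 2.58-fold higher, which did not pass (adjusted p = 0.127). The log2 ratio of Cxcl1 to Cxcl5 was 1.19 ± 0.59 in freshly isolated cells (mean ± SD, n = 3) and 1.84 ± 0.32 after 12 h (n = 2), and in the later groups (n = 3 each) it was 0.60 ± 0.38 at 24 h, 1.35 ± 0.58 at 36 h and 1.01 ± 0.21 at 48 h. These ranges of ratios at 0 h and in culture overlapped, unlike those of the CC pair.

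The libraries that stood apart for Cxcl1 and Cxcl5 also stood apart for epithelial markers, and in part for other marker lists. The summed score of 11 epithelial markers with a row, of 12 listed, was 21544, 2495 and 2809 at 0 h, 3724 and 4372 at 12 h, 1629, 3338 and 1773 at 24 h, 939, 1027 and 95 at 36 h, 604, 2037 and 1079 at 48 h, and 9327 in the tissue. Within 0 h, replicate 1 had the highest epithelial sum and the lowest Cxcl1 and Cxcl5. Within 36 h, replicate 3 had the lowest sum, with Krt5 at 0 and Krt14 at 3, and the highest Cxcl1 and Cxcl5. The difference was not confined to epithelial markers. Within 0 h, replicate 1 also had the lowest red cell sum (97833). Its macrophage, endothelial and dental mesenchyme sums lay between those of the other libraries at 0 h. Within 36 h, replicate 3 also had the lowest dental mesenchyme sum (283184), the lowest red cell and macrophage sums and the highest endothelial sum. The part of any of these markers in the result was not tested.

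Because these libraries have the lowest scores of Cxcl1 and Cxcl5 at 0 h and the highest at 36 h, leaving them out had to enlarge the falls from 0 h, so the values are a description. Without both, Cxcl1 had a log2 change of -2.28 at 48 h and -2.49 at 36 h. Cxcl5 then had -1.77 at 48 h and -2.64 at 36 h. Leaving out 0 h replicate 1 alone gave Cxcl1 changes of -2.51, -2.38, -2.14 and -2.28 at the 4 time points. Leaving out 36 h replicate 3 alone gave Cxcl5 -2.36 at 36 h, and moved its step from 24 h to 36 h from -0.51 (adjusted p = 0.466) to -1.18.

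**Figure D2:**
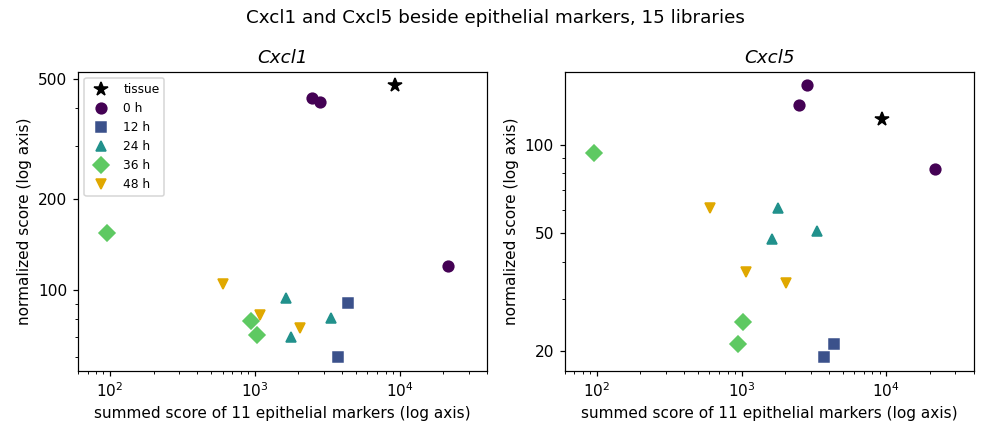
Score of Cxcl1 (left) and Cxcl5 (right) against the summed score of 11 epithelial markers (both axes log), with 1 point per library and a symbol per group. At 0 h the library at 21544 has the lowest Cxcl1 (120) and Cxcl5 (83), and at 36 h the library at 95 has the highest (155 and 94).

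Cxcl12, which acts on CXCR4 and is bound by the scavenger receptor ACKR3, holds blood cell progenitors and guides migrating cells in many embryonic tissues. The transcript in the table (ENSMUST00000112866, 3 exons, 1878 bases, plus strand of chromosome 6, 117168535 to 117175069) encodes a chain of 89 residues. Its score was 5620, 6335 and 5003 at 0 h and 7071 in the tissue. The cultured scores were 3939 and 3892 at 12 h, 4969, 5487 and 4969 at 24 h, 4006, 4006 and 4044 at 36 h, before 4410, 3841 and 3643 at 48 h. All libraries at 12, 36 and 48 h were below every library at 0 h and 24 h, and the latter groups overlapped. Cxcl12 ranked between the 90.6th and 95.9th percentile in all mDMC libraries.

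Cxcl12 fell by 0.52 on the log2 scale at 12 h (SE 0.11, adjusted p = 0.000941), by 0.49 at 36 h (adjusted p = 0.000483) and by 0.51 at 48 h (SE 0.09, adjusted p = 0.00032), all under 2-fold. At 24 h the change from 0 h was -0.13 with a 95% interval from -0.34 to 0.07 (adjusted p = 0.232). The score rose by 0.39 from 12 h to 24 h (adjusted p = 0.0387) and fell by 0.35 from 24 h to 36 h (adjusted p = 0.0213). Both steps were under 2-fold, and the libraries at 24 h lay above all those at 12 h and at 36 h. With any library of these time points left out, the first step stayed between 0.34 and 0.42 but its adjusted p was between 0.0508 and 0.193. The second stayed between -0.38 and -0.31, with an adjusted p between 0.0296 and 0.086, below 0.05 only without 24 h replicate 1. The changes from 0 h at 12, 36 and 48 h had an adjusted p below 0.05 without any single library.

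Cxcl14, a chemokine expressed in many epithelia and stromal cells whose receptor is less settled, was higher in culture. Its transcript (ENSMUST00000021970, 4 exons, 1827 bases) is on the minus strand of chromosome 13 from 56288643 to 56296551. The score was 1080, 1127 and 1030 at 0 h and 1380 in the tissue, above all 3 freshly isolated libraries. It was 1686 and 1823 at 12 h, 2222, 1852 and 1408 at 24 h, 1729, 1823 and 1499 at 36 h, before 1609, 2361 and 1676 at 48 h. Every cultured library was above 0 h, and the ranges of the cultured time points overlapped.

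Relative to 0 h, Cxcl14 was higher by 0.70 on the log2 scale at 12 h (SE 0.19, adjusted p = 0.00576), by 0.74 at 24 h (adjusted p = 0.00158), by 0.64 at 36 h (adjusted p = 0.00388) and by 0.78 at 48 h (SE 0.17, adjusted p = 0.000925). Each of these changes was under 2-fold and passed without any single library (adjusted p at most 0.0427, at 12 h). Between cultured time points the changes of Cxcl14 lay between -0.10 and 0.14 and none passed the test.

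**Figure D3:**
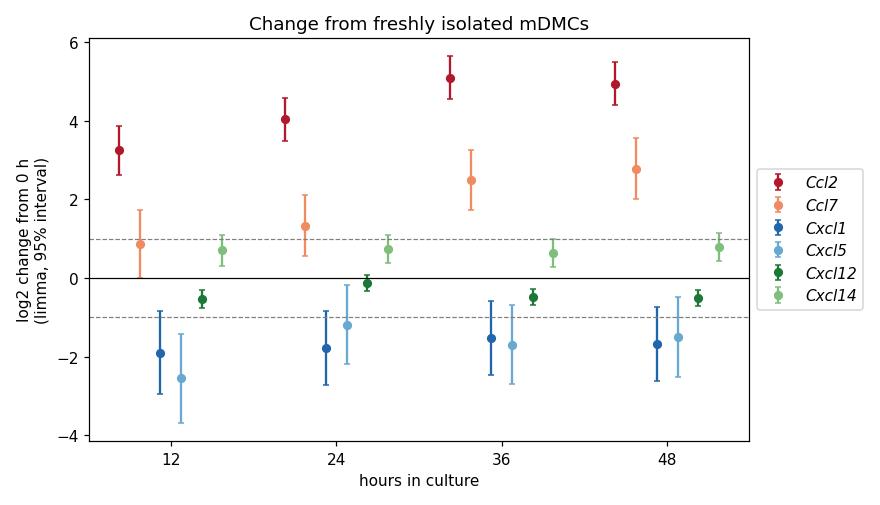
Log2 change of the 6 chemokines from 0 h (vertical axis) at 12, 24, 36 and 48 h of culture, as limma estimates with 95% intervals, and dashed lines at 2-fold. Ccl2 reached 5.10 at 36 h, Cxcl1 and Cxcl5 lay between -1.18 and -2.55, and Cxcl12 and Cxcl14 stayed within 2-fold.

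Between neighbouring cultured time points few members were called. From 12 h to 24 h, 0 of the 6 were called by limma, with 1.42% of all genes higher and 0.993% lower, while 3 members had an unadjusted p below 0.05 and 1, Cxcl12, an adjusted p below it. From 24 h to 36 h the 2 CC members were called higher (2.04% of all genes) and 0 members lower (1.37%). From 36 h to 48 h limma called 0 members and 0% of all genes in each direction, with 0 members and 1617 of 12079 genes at an unadjusted p below 0.05. From 12 h to 48 h the CC members were called higher (6.26% of all genes) and 0 members lower (6.66%).

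Per kilobase of the listed transcript, the order of the members changed with culture. The step that produced the scores is not given, so whether they scale with transcript length is unknown. The order between genes and its ranges are therefore a description only. At 0 h the mean scores per kb were 3010 ± 355 for Cxcl12, 591 ± 27 for Cxcl14, 340 ± 185 for Cxcl1, 80.2 ± 24.8 for Cxcl5, 29.1 ± 10.6 for Ccl2 and 7.49 ± 1.25 for Ccl7 (SD, n = 3). At 48 h Cxcl12 and Cxcl14 were still the highest, at 2111 ± 212 and 1030 ± 228 per kb (SD, n = 3). Next were Ccl2 at 897 ± 53, Cxcl1 at 92.0 ± 16.3, Ccl7 at 62.4 ± 29.5 and Cxcl5 at 27.9 ± 9.4. At 0 h the ranges of neighbours in this order were all separate. At 48 h those of Cxcl14 and Ccl2 overlapped, as did those of Cxcl1 and Ccl7.

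The 14 mDMC libraries span 5 time points, so a correlation over them also carries any course over time that the genes share. Among the members, the most alike log2 scores were those of Ccl2 with Ccl7 and of Cxcl1 with Cxcl5. Pearson's r was 0.89 for the first of these and 0.83 for the second. It was -0.57 for Cxcl12 with Cxcl14. Across the pairs, Cxcl14 had r of 0.81 with Ccl2 and 0.73 with Ccl7, and -0.72 with both Cxcl1 and Cxcl5. Cxcl12 had 0.57 with Cxcl1 and 0.71 with Cxcl5, and -0.69 and -0.68 with Ccl2 and Ccl7. Between the CC members and Cxcl1 or Cxcl5 it lay between -0.66 and -0.45. Among all transcripts, those most like Ccl2 were Ostf1 (r = 0.996), Tmbim1 (0.995) and Cryab (0.994), a small heat shock protein whose mean score went from 12.3 at 0 h to 1234 at 36 h. Those most like Ccl7 were 4933434E20Rik, Nmt1 (both 0.967) and Plpbp (0.963).

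For Cxcl1 the nearest was Mcl1 (r = 0.974), an anti-apoptotic gene with a short-lived mRNA and mean scores of 8210 at 0 h and 5177 at 12 h, before Armcx5 (0.954) and Slc22a5 (0.953). For Cxcl5 they were Cdc14a (0.911), Uaca (0.898) and Plekhf2 (0.88). The transcripts most like Cxcl12 were Tk1 (0.958), Kif11 (0.919) and Sapcd2 (0.898), of which Tk1 makes nucleotides for DNA synthesis and Kif11 is a motor of the mitotic spindle. Kif11 had mean scores of 4525, 1901, 3132, 2119 and 1783 at 0, 12, 24, 36 and 48 h. It was picked for its likeness to Cxcl12, so the higher value at 24 h follows from that choice. Cxcl14 was most like Mrvi1 (0.928), Snx7 (0.915) and Tbrg1 (0.913).

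Of 32 other chemokine ligands listed, 3 had a row. At 48 h 2 were higher and 1 lower, and the same held at 12, 24 and 36 h. For this and the following lists, the shares of all genes called at 48 h are the 16.1% higher and 15.8% lower given above. The 3 ligands had a median log2 change of 1.94 at 48 h beside 0.03 for all genes. Cx3cl1, a membrane-bound ligand of monocytes and microglia, had scores of 15 to 28 at 0 h, 228 and 286 at 12 h and 108 to 270 at 48 h (log2 change at 48 h 3.14, SE 0.32, adjusted p = 1.84e-06). Cxcl16, the other membrane-bound chemokine, went from 27 to 32 at 0 h to 108 to 125 at 48 h (1.94, adjusted p = 3.54e-07). Ccl27a, an attractant of skin-homing T cells, fell by 2.71, from 192 to 240 at 0 h to 21 to 47 at 48 h (adjusted p = 1.94e-05).

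Among the receptors, 6 of 23 listed had a row, and at 48 h 0 were called higher and 2 lower, with a median log2 change of -0.64. Ackr4 was called higher at 24 h (1.017, adjusted p = 0.0392) and 36 h (2.366, adjusted p = 0.000165). Its scores were 38 to 53 at 0 h and 210 to 256 at 36 h, and it did not pass at 48 h (0.921, adjusted p = 0.0552). Cxcr4, the signalling receptor of Cxcl12, had scores between 96 and 125 at 0 h, 64 and 77 at 12 h and 33 to 38 at 48 h, a fall by 1.65 without overlap (SE 0.22, adjusted p = 2.05e-05). Ackr3, which removes Cxcl12, had scores of 528 to 655 at 0 h and 670 to 1452 at 48 h (0.66, adjusted p = 0.0322, under 2-fold). Cx3cr1, the receptor of Cx3cl1, fell by 2.49 (162 to 341 at 0 h, 36 to 59 at 48 h, adjusted p = 1.53e-05).

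Ccr2, the receptor of Ccl2 and Ccl7, had scores of 126 to 216 at 0 h and 26 to 86 at 48 h, which did not pass the test (-1.86, SE 1.11, adjusted p = 0.149). It did not pass at 12 h (40 and 65) or 24 h (42 to 132) either, but was called lower at 36 h (0 to 49, -3.93, SE 1.11, adjusted p = 0.00652), where the size depends on the pseudocount because the lowest library is listed at 0. Cxcr2 was not analysed here. Cx3cr1 and Ccr2 are carried by monocytes and macrophages, and the summed score of 7 macrophage markers with a row, of 14 listed, was 1485 to 2288 at 0 h, 594 to 1041 at 48 h and 3653 in the tissue. None of the 7 was at 0 in any group: Csf1r and Mrc1 fell by 2.50 and 3.25, while Cd14 was higher by 1.39. The part of these markers in the receptor values was not tested.

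Of 18 tested genes listed as receptors upstream of NF-κB (21 listed), 9 were higher and 1 lower at 48 h, with a median log2 change of 0.93. The list also holds the adaptors and kinases Irak1, Irak4, Ripk1, Traf6 and Myd88. Of these, Irak4 and Myd88 were among the 9 (log2 changes 1.236 and 1.075). The 1 lower gene was Lifr (-1.305), which like Il6st belongs to the receptor family of Osmr. Il1rl1, the receptor of interleukin-33, went from 16 to 29 at 0 h to 2715 and 3362 at 12 h and 2566 to 9804 at 48 h (7.92, SE 0.47, adjusted p = 1.37e-08). Osmr, the oncostatin M receptor, which signals mainly through STAT factors, rose from 8 to 14 at 0 h to 375 to 533 at 48 h (5.19, adjusted p = 5.94e-08). Il17rc, a subunit of the interleukin-17 receptor, was 18 and 18 at 12 h and 211 to 275 at 48 h, and Tlr4, the receptor of bacterial lipopolysaccharide, was 55 to 93 at 0 h and 580 to 961 at 48 h (log2 changes from 0 h 3.85 and 3.21, adjusted p = 2.22e-09 and 2e-07). Osmr at 0 h and Il17rc at 0 h and 12 h were under 1 ppm in every library, so both entered the test, like Ccl7, through the later time points at which they were high.

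Of 19 tested NF-κB factors and feedback genes (21 listed), 6 were higher, 1 lower and 12 not called at 48 h, with a median log2 change of 0.74, beside 0.03 for all genes. Nfkb2, a subunit of the non-canonical arm, rose by 2.29 (371 to 441 at 0 h, 1845 to 2197 at 48 h, adjusted p = 4.3e-10), and the inhibitors Nfkbib and Nfkbie by 2.04 and 1.98 (adjusted p = 3.64e-07 and 2.44e-05). Rela and Nfkb1, the subunits of the canonical dimer, were higher by 0.90 and 0.82, under 2-fold (adjusted p = 4.92e-05 and 5.01e-07). Of the feedback inhibitors, Nfkbia had a log2 change of 0.03 with an SE of 0.16 (adjusted p = 0.865) and Tnfaip3 one of -0.89 (adjusted p = 0.00775, under 2-fold). Nfkbiz, an inducible cofactor of NF-κB, fell by 3.02, from 991 to 3988 at 0 h to 181 to 413 at 48 h (adjusted p = 2.89e-05).

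Of 16 tested inflammatory genes often induced together with these chemokines (28 listed), 9 were higher and 3 lower at 48 h, with a median log2 change of 2.42. Lif, a cytokine of the interleukin-6 family, was at 0 to 4 at 0 h and 461 to 839 at 48 h (8.25, adjusted p = 4.42e-09), and like Mmp3 and Tslp, also among the 9, it was under 1 ppm in every library at 0 h and entered the test through the cultured libraries. Plaur, the urokinase receptor, Ptgs2, the inducible cyclooxygenase, and Ptx3, a soluble pattern recognition protein, rose by 5.47, 4.56 and 4.51 (adjusted p = 1.28e-09, 6.79e-07 and 2.53e-10). Of the 3 lower genes, Socs3, a feedback inhibitor of cytokine signalling, had the largest fall (-3.585 on the log2 scale, 3076 to 6074 at 0 h, 339 to 461 at 48 h, adjusted p = 3.71e-08). The adhesion molecule Icam1 fell by 1.18 (adjusted p = 0.00531), and Vcam1 was higher by 0.51, under 2-fold (adjusted p = 0.00441). Il6 was not analysed here.

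Of 8 listed factors that bind AU-rich elements or otherwise control the decay of chemokine mRNAs, 7 were tested, of which 1 was higher and 3 lower at 48 h (16.1% and 15.8% of all genes), with a median log2 change of -0.63. Zfp36, which destabilizes mRNAs such as that of Cxcl1, was at 463 to 2055 at 0 h, 274 and 438 at 12 h and 187 to 349 at 48 h (-1.89, SE 0.42, adjusted p = 0.00141). Its relative Zfp36l1 fell by 1.92 (adjusted p = 3.86e-05) and Tia1, a translational repressor, fell by 1.87 (adjusted p = 1.04e-08). Zfp36l2 rose by 1.17 (adjusted p = 6.13e-05). Zc3h12a was not analysed here.

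**Figure D4:**
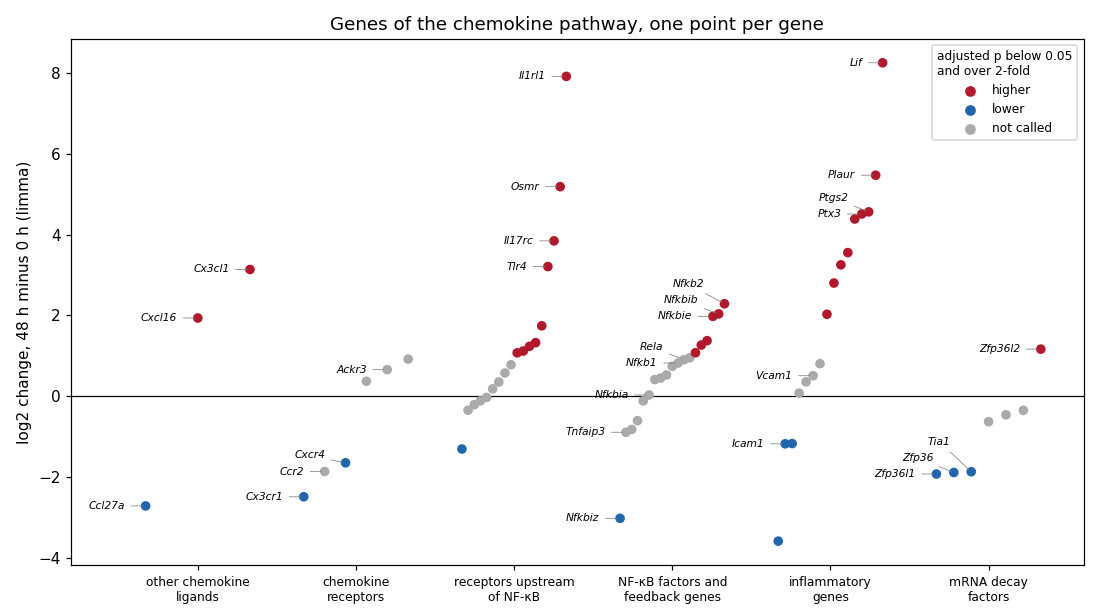
Log2 change from 0 h to 48 h (limma) of each tested gene in 6 lists of the chemokine pathway, with 1 point per gene, coloured by call. The list of receptors upstream of NF-κB, which also holds adaptors and kinases, reaches 7.92, and that of inflammatory genes 8.25. NF-κB factors and feedback genes lie between -3.02 and 2.29.

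Marker genes of the tissue and of other cell types also moved over this interval. All 14 dental mesenchyme markers had a row. Their sum, most of which comes from a few genes such as Col3a1, Col1a2, Vim and Prrx1, was 388742 to 411960 at 0 h, 352685 to 431007 at 12 h, 243626 to 349161 at 24 h, 283184 to 403201 at 36 h and 257038 to 310940 at 48 h. At 48 h 1 was called higher, 4 lower and 9 not called (16.1% of all genes higher and 15.8% lower). The summed score of 7 red cell markers (8 listed) was 97833 to 150838 at 0 h and 51 to 168 at 48 h, and that of 12 endothelial markers (14 listed) went from 13126 to 15472 to 4699 to 5759, with 9 called lower and 2 higher at 48 h. Of the 9, Cldn5, Tie1 and Esam were under 1 ppm in every cultured library and entered the test through 0 h, and Cldn5 was at 0 in every library from 24 h on, while Flt1 and Eng were higher by 1.25 and 1.08 on the log2 scale. The part of these cells in the chemokine scores was not tested.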

How the data were processed

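Of the RNA-seq libraries, 14 from mDMCs and 1 from tissue were grouped by their labels. The authors aligned reads to the mm10 transcriptome and estimated expression with RSEM (version 1.1.21 in the submitters' processing notes, while the study's methods name another version), and called genes with DESeq2. The authors deposited 1 table of whole-number expression scores, labelled as cpm but with totals of 21357605 to 21365980 and 1 distribution shared by all libraries. The step that produced it is not given in the sources used here, and no depth or counting interval can be given.

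Transcripts were matched to genes with GENCODE annotation of GRCm38 (11973 of 12089). Those with at least 1 ppm in at least 2 mDMC libraries were tested (12079). The 5 time points were compared on log2(score + 1) with limma 3.58.1 under R 4.3.3, in a single fit of the 14 mDMC libraries with a trended eBayes, and p-values were adjusted by Benjamini-Hochberg over all genes tested. A call needed an adjusted p below 0.05 and a change above 2-fold. Likeness was Pearson's r over the 14 libraries. The tissue, with 1 library, was not tested. Python 3.11.15 with pandas 2.3.3, numpy 2.4.6 and matplotlib 3.10.9 served for summaries and plots.

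The members and gene lists were chosen with earlier results of these data known. Named are all 6 members, up to 4 called genes of each list with the largest change at 48 h, a few genes of each list fixed by name, and the 3 transcripts most like each member. A further gene of these lists is not reported here and was left out of the counts. Marker genes named beside a sum, Mmp3, Tslp, Socs3 and Ackr4, and the genes described among the 3 most alike were picked after their values were seen. The same holds for the adaptors, kinases, Il6st and Lifr named among the receptors upstream of NF-κB. Replicate numbers were not used to pair the libraries. Alternatives were other pseudocounts, filters, scaling, fits, thresholds and left-out libraries.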

Additional observations from a re-analysis of the deposited data

How the results depend on the processing

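No direction of a called member reversed under the alternatives tried, and a robust eBayes, median-ratio scaling, no filter, a pseudocount of 0.1 and a fit of the compared time points alone changed no count of called members by 1.5 times. With the replicate number as a replicate block, 2 members were higher and 2 lower at 48 h, as without it, and no other count of called members changed. The labels give no shared origin for a number. Deviations from the group means correlated above 0.1 in 11 of 26 library pairs with the same number (r from -0.25 to 0.32) and in 6 of 52 with different numbers, and 11 of 14 libraries correlated best with their own number, a hint from the data and not from the design. A pseudocount of 10 left 1 member higher at 24 h and 1 from 24 h to 36 h. It gave log2 ratios of Ccl2 to Ccl7 of 1.04, 3.42, 3.91 and 4.09 at 0, 12, 24 and 36 h and 1.20 in the tissue, and of Cxcl1 to Cxcl5 of 1.49 at 12 h and 1.88 in the tissue. Requiring 1 ppm in all libraries removed Ccl2, Ccl7 and Cxcl5 and left 0 higher and 1 lower in each comparison with 0 h, and 0 higher in both 36 h against 24 h and 48 h against 12 h. An unadjusted p called 1 member higher from 12 h to 24 h. Without the fold threshold 2 were higher at 12 h, 1 higher from 12 h to 24 h and 1 lower from 24 h to 36 h.

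Leaving out 1 library at a time gave 1 to 2 members lower at 12 h and at 24 h, 0 to 1 higher from 12 h to 24 h, and 0 to 2 higher and 0 to 1 lower from 24 h to 36 h. The following were chosen after seeing the data. The 36 h replicates 1 and 2 were the most alike of all replicate pairs (root mean square log2 difference 0.288, others 0.354 to 0.549), and averaging them left 1 member higher from 24 h to 36 h. Without 0 h replicate 1 and 36 h replicate 3, 1 member was higher from 12 h to 24 h, 0 were higher and 1 lower from 24 h to 36 h, and 3 were higher from 12 h to 48 h. With the depth unknown and Ccl7 at scores of 5 to 7 at 0 h, the size of its change is limited by the whole-number steps of the scores.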
